A study of Homo sapiens with 4 samples.

Results

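The 10 genes that the literature reports as targets of miR-191 were followed in HepG2 cells, an established human liver cancer line. The cells had been transfected with an inhibitor of that microRNA or with a control. The members are NDST1, TIMP3, SATB1, CDK6, SOX4, FZD5, CREBBP, TMOD2, BASP1 and CCND2. They were chosen by name from those reports, with earlier results of these data known. All 10 had a row that carries their symbol alone, out of 18417 genes so represented, and the brightest row stood for each gene. The comparison asks which of them differ in mRNA level when miR-191 is blocked. One group, anti-miR-191, received an antisense inhibitor of miR-191, and the control group, anti-miR-NC, received a negative control anti-miR. Each group holds 2 arrays, both lots of cells were transfected with the same lipid reagent, and each of 2 independent experiments gave 1 array of each group. The labels give no dose and no time after transfection, and the arrays come from a single tumour line.

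A microRNA guides Argonaute proteins to messenger RNAs, mostly by pairing of its seed, bases 2 to 8, with sites in 3′ untranslated regions. Bound messengers are translated less and often decay faster, so blocking a microRNA can raise the mRNA of its targets, while some targets change in protein alone. miR-191 lies beside miR-425 on chromosome 3 and has been studied in liver and other cancers. The sequences below show the MIR191 hairpin, both mature arms and the seeds by which targets are paired. The sample titles name miR-191 as the target of the inhibitor without naming an arm. They are RefSeq sequences on GRCh38.p14. The hairpin lies at chr3:49020618-49020709 on the minus strand, and its capitals mark both mature arms. In the mature arms the capitals mark the seed.
MIR191 hairpin: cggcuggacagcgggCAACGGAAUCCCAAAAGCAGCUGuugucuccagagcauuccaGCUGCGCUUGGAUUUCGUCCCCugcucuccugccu
hsa-miR-191-5p: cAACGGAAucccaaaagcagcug
hsa-miR-191-3p: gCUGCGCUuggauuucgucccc

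The 5p arm covers bases 16 to 38 of the hairpin and the 3p arm bases 58 to 79. A site paired to the whole 5p seed reads UUCCGUU. Among 2370 mature microRNA names in the table, 0 others share the 5p seed and 0 others share the 3p seed. Untranslated regions of the members were not analysed here, so no site is shown. The array row for the MIR191 precursor differed by 0.32 ± 0.15 (limma adjusted p = 0.201), and it does not measure the mature microRNA that the inhibitor binds.

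Values are RMA intensities on the log2 scale, a normalized probe brightness, so a difference of 1 is a doubling. Changes are anti-miR-191 minus control, averaged over both experiments, with the standard error of a limma fit in which each experiment is a block (the paired fit). With 1 residual and 6.60 prior degrees of freedom, these errors and intervals rest largely on the variance of all genes tested. They are not a measure of how far a gene's own experiments differed. The words rose and fell are kept for a Benjamini-Hochberg adjusted p under 0.05 in that fit, over the 14147 genes tested. The unpaired fit, without the block, is given where it alters a call. Rows in the dimmest 33.3% (mean level below 3.41) were not tested, which left 8 of the 10 members and set aside SATB1 and TMOD2. Array medians lay between 4.37 and 4.43. Values spread more widely on the anti-miR-191 arrays, with interquartile ranges of 3.38 and 3.43, against 3.18 and 3.24 in controls. The 8 hepatocyte marker genes measured had mean levels from 4.78 to 11.1 after anti-miR-191 and from 5.21 to 11.6 in controls. All 8 means were lower after anti-miR-191, while 7275 of the 14147 genes tested had a higher mean. The experiments differed here: 5 of the 8 were higher in experiment 1 and 0 in experiment 2, with median changes of 0.02 and -0.91. Of all genes tested, 7413 were higher in experiment 1 and 7229 in experiment 2. Of these markers TTR, the thyroid hormone carrier, fell by 1.04 ± 0.14 (limma adjusted p = 0.0057). The 15 markers of other cell types had median levels of 3.90 after anti-miR-191 and 3.95 in controls, with a range in controls of 2.62 (PTPRC) to 9.24 (LYZ), so no single level marks background. LYZ stood apart, and the next highest was COL1A1 at 6.02 in controls. That is above CDK6 (5.83) and CCND2 (5.48) and below BASP1 (6.25) in controls. Whether these differences between the groups bear on the members was not tested.

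The members did not behave alike. SOX4, FZD5 and NDST1 rose. CDK6, CREBBP and TIMP3 read higher on both anti-miR-191 arrays without passing the test, and BASP1 and CCND2 read lower on both without passing. SATB1 and TMOD2 were dim on every array. Of the 8 tested, 3 rose in the paired fit, where 10.1% of all genes rose, and 0 fell, where 3.77% of all genes fell. Without the block, 2 were called higher (3.2% of all genes) and 0 lower (0.714% of all genes). Before adjustment, at p under 0.05, limma's paired fit counted 6 higher and 1 lower, where 19.1% and 8.98% of all genes did so. Without the block it counted 5 higher and 0 lower, where 15.3% and 6.28% of all genes did so. Both anti-miR-191 arrays lay above both controls for 6 of the 8, a pattern seen in 29.4% of all genes, and below both controls for 2, a pattern seen in 23.8%. The same 6 were higher in each experiment taken alone, as were 36.5% of all genes. The median change of the 8 was 0.49 (0.49 in experiment 1 and 0.35 in experiment 2), beside 0.01 for all genes tested. After quantile normalization this median was 0.37, beside -0.024 for all genes, and after cyclic loess 0.43, beside 0.0089. These counts describe a list that was chosen with earlier results of these data known, and no test of the list as a whole was made.

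**Figure D1:**
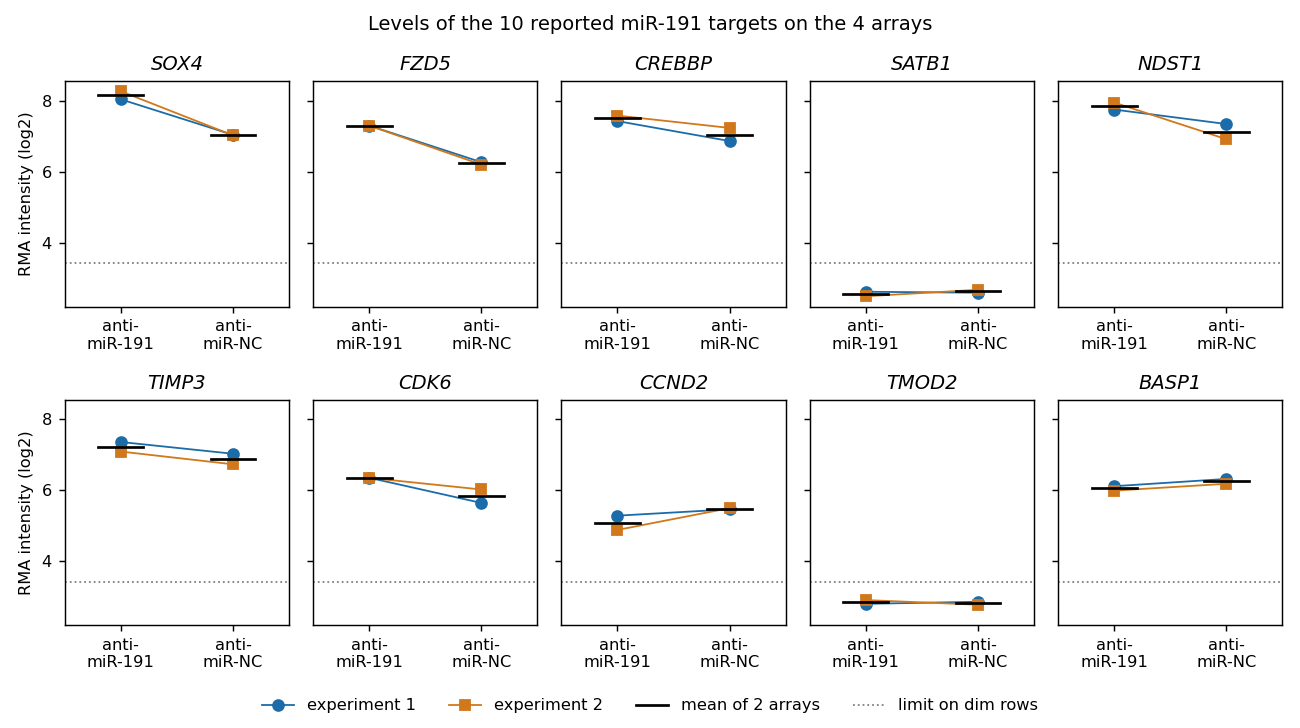
RMA intensity (log2) of each member on the 4 arrays, with anti-miR-191 on the left and control on the right of each panel; lines join the arrays of 1 experiment, bars are means of 2 arrays and the dotted line is the limit of 3.41 below which rows were not tested. SOX4 and FZD5 show steep lines in both experiments, while SATB1 and TMOD2 lie under the limit on all 4 arrays.

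SOX4, a transcription factor of the SoxC class that acts in progenitor cells and is abundant in many tumours, had the largest rise among the members. In experiments 1 and 2 it read 8.04 and 8.27 after anti-miR-191, against 7.04 and 7.03 in controls. The groups did not overlap, and the control arrays lay closer together than the treated ones. The change was 1.00 in experiment 1 and 1.24 in experiment 2, a mean of 1.12 ± 0.15 or 2.18-fold (limma adjusted p = 0.0050 in the paired fit and 0.028 in the unpaired fit). Among all genes tested, 2.04% had a larger rise.

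FZD5, a Frizzled receptor that binds Wnt proteins at the cell surface, behaved almost alike in both experiments. It read 7.30 and 7.30 after anti-miR-191, against 6.27 and 6.20 in controls. Arrays of 1 group lay far closer together than the groups did. The change was 1.03 in experiment 1 and 1.10 in experiment 2, a mean of 1.07 ± 0.14 or 2.09-fold (limma adjusted p = 0.0052 in the paired fit and 0.026 in the unpaired fit). A larger rise was seen in 2.50% of genes. When single arrays were left out of the unpaired fit, the change of FZD5 stayed between 1.03 and 1.10, but the call ended each time. Its limma adjusted p was 0.067 and 0.158 when the treated array of experiment 1 or 2 was dropped, and 0.097 and 0.104 when the control of experiment 1 or 2 was dropped. SOX4 kept its call when the treated array of experiment 1 was dropped (limma adjusted p = 0.046) and lost it when that of experiment 2 was dropped (0.169) or the control of experiment 1 (0.102) or 2 (0.104).

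The next members shape the cell surface and the extracellular matrix. NDST1, the enzyme that removes acetyl groups from heparan sulfate chains and sulfates them, read 7.76 and 7.95 after anti-miR-191 and 7.35 and 6.92 in controls. The groups did not overlap, but the control arrays were spread more widely than the treated ones. Its change was 0.41 in experiment 1 and 1.04 in experiment 2, a mean of 0.72 ± 0.18 or 1.65-fold (limma adjusted p = 0.039). This call is the least firm of the 3. It was lost in the unpaired fit (limma adjusted p = 0.096) and in the paired fit after median centring, quantile normalization and cyclic loess (limma adjusted p = 0.053, 0.097 and 0.058).

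TIMP3, an inhibitor of matrix metalloproteinases and of sheddases that is held in the extracellular matrix, did not pass. Its levels were 7.36 and 7.09 after anti-miR-191 and 7.03 and 6.73 in controls. The difference was nearly equal in both experiments, 0.33 and 0.36, while both groups read lower in experiment 2 than in experiment 1. The mean change was 0.35 ± 0.14 with a 95% interval of 0.01 to 0.68 (limma adjusted p = 0.164), and the interval was -0.09 to 0.78 in the unpaired fit. TIMP3 had a second, dimmer row, with levels of 3.998 and 3.96 after anti-miR-191 and 3.66 and 3.83 in controls, a mean difference of 0.23. Both rows of the gene were thus higher on the anti-miR-191 arrays, and neither separates the groups by as much as the rows of SOX4 or FZD5.

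The cell cycle members went in opposite directions on the arrays, and neither passed. CDK6, the kinase that D-type cyclins activate to start phosphorylation of the retinoblastoma protein, read 6.35 and 6.35 after anti-miR-191 and 5.64 and 6.02 in controls. The treated arrays were nearly identical, and the controls were not, with differences of 0.71 in experiment 1 and 0.33 in experiment 2. The mean change was 0.52 ± 0.16, with a 95% interval of 0.15 to 0.89 (limma adjusted p = 0.073).

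CCND2, a D-type cyclin and thus a partner of CDK6, read 5.28 and 4.88 after anti-miR-191 and 5.46 and 5.50 in controls. Here the controls were close together and the treated arrays were not. The difference was -0.18 in experiment 1 and -0.62 in experiment 2, with a mean of -0.40 ± 0.16 and a 95% interval of -0.78 to -0.02 (limma adjusted p = 0.162), and the interval was -0.84 to 0.04 in the unpaired fit. Its sign is opposite to that of SOX4, FZD5 and NDST1.

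CREBBP, the acetyltransferase and coactivator known as CBP, read 7.43 and 7.58 after anti-miR-191 and 6.87 and 7.24 in controls. The groups did not overlap, with differences of 0.56 and 0.35 in experiments 1 and 2. The mean change was 0.46 ± 0.15, with a 95% interval of 0.11 to 0.80 (limma adjusted p = 0.087). SATB1, a chromatin organizer best known from T cells, read 2.62 and 2.49 after anti-miR-191 and 2.59 and 2.67 in controls. The groups overlapped. With dim rows kept, its change was -0.08 ± 0.14, with a 95% interval of -0.40 to 0.24 (limma adjusted p = 0.789), and its sign turned under quantile normalization (0.0071).

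BASP1 and TMOD2 belong to the plasma membrane and the cytoskeleton. BASP1, a myristoylated protein of the inner plasma membrane that was described in nerve endings, read 6.11 and 5.99 after anti-miR-191 and 6.32 and 6.18 in controls. The differences of -0.20 and -0.19 were nearly equal in the experiments, and the groups did not overlap. The mean change was -0.20 ± 0.14, with a 95% interval of -0.53 to 0.13 (limma adjusted p = 0.429), and 50.7% of all genes had a larger absolute change. TMOD2, a tropomodulin that caps the pointed ends of actin filaments in neurons, read 2.80 and 2.90 after anti-miR-191 and 2.85 and 2.77 in controls. The groups overlapped, and with dim rows kept the change was 0.04 ± 0.14, with a 95% interval of -0.28 to 0.35 (limma adjusted p = 0.909).

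**Figure D2:**
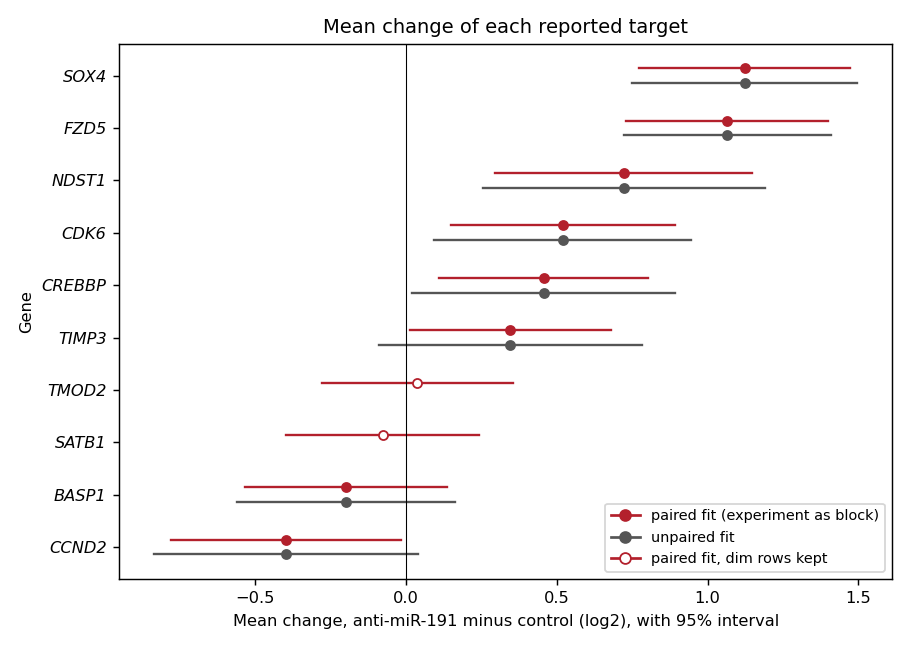
Mean change of each member (log2, anti-miR-191 minus control) with its 95% interval from limma's paired fit and, below it, from the unpaired fit; open circles are SATB1 and TMOD2 from the paired fit with dim rows kept. The intervals of SOX4 (0.77 to 1.47) and FZD5 (0.73 to 1.40) from the paired fit lie far from 0. Those of BASP1, SATB1 and TMOD2 include 0, as do those of TIMP3 and CCND2 in the unpaired fit alone.

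The experiments differed most for NDST1 and CCND2, with larger differences in experiment 2, and for CDK6, with the larger difference in experiment 1. For SOX4, CREBBP, FZD5, TIMP3 and BASP1 the experiments lay within 0.24 of each other. Over all genes tested the SD of the changes was 0.430 in experiment 1 and 0.497 in experiment 2. SATB1 and TMOD2 had opposite signs in the experiments, with differences of 0.03 and -0.18 for SATB1 and -0.06 and 0.13 for TMOD2.

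**Figure D3:**
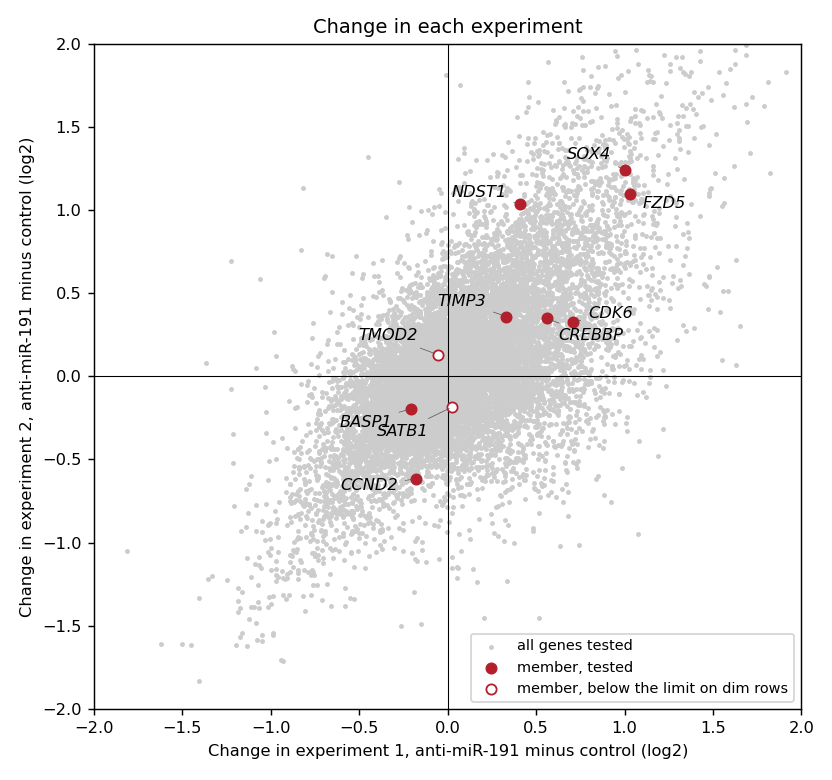
Change (log2, anti-miR-191 minus control) in experiment 1 on the horizontal axis and in experiment 2 on the vertical axis, for all 14147 genes tested (grey; 92 lie beyond the axes) and the members (red, open where dim). SOX4 and FZD5 stand at the upper right with changes over 1 in both experiments, BASP1 and CCND2 lie at the lower left, and SATB1 and TMOD2 lie near the origin on opposite sides.

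Genes of the same families or pathways that are not members were read from 7 lists. Of 103 genes listed, 86 were tested, and by the paired fit 7 rose (8.14%, beside 10.1% of all genes) and 1 fell (1.16%, beside 3.77%). Without the block 0 passed in either direction, where 3.2% of all genes passed as higher and 0.714% as lower. Before adjustment, limma's unpaired fit counted 12 higher and 3 lower at p under 0.05, where 15.3% and 6.28% of all genes did so. The counts of the single lists below are from the paired fit, in which 10.1% of all genes rose and 3.77% fell. At an unadjusted p under 0.05 in limma's paired fit, 19.1% of all genes were higher and 8.98% lower. The median change of the 86 was 0.0021, and the lists were written with earlier results of these data known.

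Of the 12 other SOX genes tested, 0 passed in the paired fit (limma counted 1 higher at an unadjusted p under 0.05). SOX11 and SOX12, the closest relatives of SOX4, had changes of -0.08 ± 0.14 and 0.01 ± 0.14, beside 1.12 for SOX4. SOX9, a progenitor factor of liver and bile duct, had a change of 0.20 ± 0.15. Among 14 other genes of Wnt receptors, co-receptors and the receptor regulators ZNRF3 and RNF43, 1 rose and 0 fell (limma counted 1 higher and 0 lower at an unadjusted p under 0.05). The riser was the co-receptor LRP6, at 0.66 ± 0.14. The Frizzled receptors FZD1, FZD2, FZD4, FZD7, FZD8, FZD9 and FZD10 had changes between -0.38 (FZD4) and 0.32 (FZD7), beside 1.07 for FZD5. Differences between a member and its relatives were not tested.

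Of 13 other heparan sulfate genes, 1 rose and 0 fell (limma counted 3 higher and 0 lower at an unadjusted p under 0.05). EXTL3, a glycosyltransferase that starts the heparan sulfate chain, rose 1.64-fold (0.71 ± 0.14), close to the 1.65-fold of NDST1, and lost its call after quantile normalization (limma adjusted p = 0.0501). NDST3 and NDST4 were dim. Of 14 genes of metalloproteinases and their inhibitors, 1 rose and 0 fell (limma counted 1 higher and 2 lower at an unadjusted p under 0.05). ADAM17, a sheddase that TIMP3 inhibits, rose 1.66-fold (0.73 ± 0.14). TIMP1, TIMP2 and TIMP4 had changes of -0.19 ± 0.14, 0.14 ± 0.14 and -0.36 ± 0.14, and none of them passed. TIMP4 is among the 2 counted lower before adjustment, and its sign is opposite to that of TIMP3 (0.35).

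Of 13 genes around the D-type cyclins, 2 rose and 1 fell (limma counted 2 higher and 2 lower at an unadjusted p under 0.05). The cyclin-dependent kinase inhibitors CDKN1B and CDKN1A rose 2.70-fold and 1.64-fold, and CDKN2A, whose products include an inhibitor of CDK4 and CDK6, fell by 0.57 ± 0.14. CDKN1A lost its call after quantile normalization (limma adjusted p = 0.053). CDK4 had a change of -0.30 ± 0.14, beside 0.52 for CDK6, and CCND1 and CCND3 had changes of 0.23 ± 0.15 and -0.08 ± 0.14, beside -0.40 for CCND2. Of 10 chromatin partners, EP300 rose and 0 fell (limma counted 2 higher and 0 lower at an unadjusted p under 0.05). EP300, the acetyltransferase most like CREBBP, read 6.59 and 6.85 after anti-miR-191 and 5.42 and 6.35 in controls. It rose 1.78-fold (0.83 ± 0.19; 1.17 in experiment 1 and 0.50 in experiment 2) and lost its call after quantile normalization (limma adjusted p = 0.071). Of 10 relatives of TMOD2 and BASP1, the tropomyosin TPM1 rose 1.78-fold (0.83 ± 0.14) and 0 fell (limma counted 3 higher and 0 lower at an unadjusted p under 0.05). TMOD3 differed by 0.94 in experiment 1 and by -0.01 in experiment 2, and MARCKS, a membrane protein related in function to BASP1, had a change of 0.53 ± 0.16. MARCKSL1 and GAP43 of the same list had changes of -0.19 ± 0.15 and 0.09 ± 0.15, beside -0.20 for BASP1. None of the 8 relatives called in the paired fit (EXTL3, ADAM17, EP300, CDKN1A, CDKN1B, CDKN2A, LRP6 and TPM1) passed in the unpaired fit, where limma's adjusted p lay between 0.056 and 0.188.

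**Figure D4:**
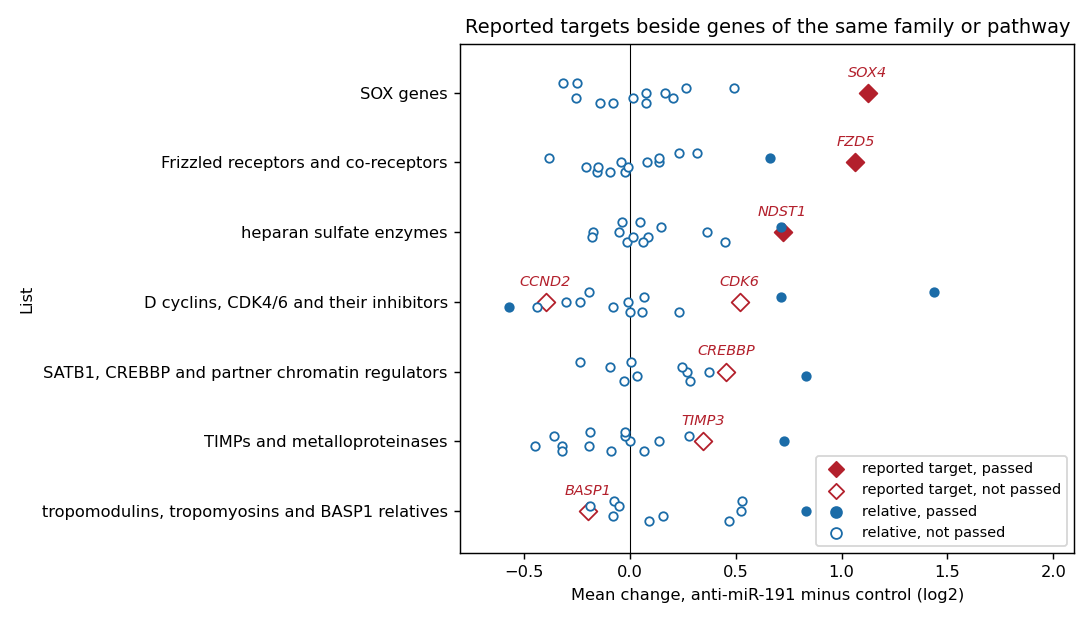
Mean change (log2, anti-miR-191 minus control) of the 8 tested members (diamonds) and of their tested relatives in 7 lists (circles), filled where the gene passed in limma's paired fit. SOX4 and FZD5 lie right of every relative in their lists, NDST1 lies beside EXTL3 at 0.71, and CDKN1B at 1.44 lies right of CDK6.

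Another 4 genes are recalled as miR-191 targets from general knowledge without a source at hand. They too were listed with earlier results of these data known. Only 2 of them were tested, and 2 rose in the paired fit, where 10.1% of all genes rose. EGR1, an immediate early transcription factor, read 8.76 and 9.29 after anti-miR-191 and 7.22 and 6.69 in controls, and rose 4.19-fold. CEBPB, a liver transcription factor of the acute phase, read 9.40 and 9.78 after anti-miR-191 and 8.20 and 7.69 in controls, and rose 3.12-fold. MDM4, a p53 inhibitor, read 3.36 and 3.67 after anti-miR-191 and 2.96 and 3.27 in controls, and BDNF, a neurotrophin, read 2.61 and 2.52 after anti-miR-191 and 2.60 and 2.71 in controls. MDM4 and BDNF lay below the limit on dim rows and were not tested.

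Genes with the most similar pattern over the 4 arrays were found by Euclidean distance between levels after each gene's mean was taken off. The search covered 14147 genes, of which 10.1% rose, so with only 4 arrays near neighbours were likely for any riser. Whether the neighbours share anything further with the members was not tested. Nearest to FZD5 were ZSWIM6 (distance 0.039, mean change 1.04), the autophagy gene ATG12 (0.048, mean change 1.02) and the ribosome assembly gene RRP12 (0.052, mean change 1.09). Nearest to SOX4 were the pseudogene TOB2P1 (0.051, mean change 1.13), STARD7 (0.051, mean change 1.08) and FSTL3 (0.053, mean change 1.15). Nearest to NDST1 were NRBP1 (0.059, mean change 0.75), PARP16 (0.065, mean change 0.73) and SPATA13 (0.066, mean change 0.72).

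Because SOX4, FZD5 and NDST1 rose together, the RefSeq promoter windows of these 3 genes (GRCh38.p14, 250 bases before to 50 after the start) are shown to set their sequences side by side. The table held 14 windows for 9 of the 10 members and none was matched for CCND2. Motifs were searched on both strands as letters only, and matches are in capitals. The motif of AP-1, a dimer of FOS and JUN proteins, was searched as TGANTCA and stood in 7.71% of all 35116 windows in the table. The cyclic AMP response element was searched as TGACGTCA and stood in 1.85% of those windows. The GC box, bound by SP1, was searched as GGGCGG and stood in 45.0% of them. The core promoter element of many tightly regulated genes, the TATA box, was searched as TATAAA and stood in 11.5% of windows.
SOX4, chr6:21593501-21593800, plus strand: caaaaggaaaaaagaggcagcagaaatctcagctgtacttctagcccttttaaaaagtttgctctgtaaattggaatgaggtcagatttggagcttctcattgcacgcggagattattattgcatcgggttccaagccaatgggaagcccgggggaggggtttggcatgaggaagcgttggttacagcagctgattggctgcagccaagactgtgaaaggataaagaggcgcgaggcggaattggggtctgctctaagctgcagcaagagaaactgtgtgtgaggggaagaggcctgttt
FZD5, chr2:207769857-207770156, minus strand: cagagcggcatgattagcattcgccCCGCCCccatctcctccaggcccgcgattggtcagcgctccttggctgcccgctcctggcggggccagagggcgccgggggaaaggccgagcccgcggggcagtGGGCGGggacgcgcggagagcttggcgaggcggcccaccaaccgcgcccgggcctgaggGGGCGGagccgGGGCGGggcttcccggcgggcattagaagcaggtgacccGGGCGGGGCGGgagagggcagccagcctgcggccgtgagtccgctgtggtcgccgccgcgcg
NDST1, chr5:150497529-150497828, plus strand: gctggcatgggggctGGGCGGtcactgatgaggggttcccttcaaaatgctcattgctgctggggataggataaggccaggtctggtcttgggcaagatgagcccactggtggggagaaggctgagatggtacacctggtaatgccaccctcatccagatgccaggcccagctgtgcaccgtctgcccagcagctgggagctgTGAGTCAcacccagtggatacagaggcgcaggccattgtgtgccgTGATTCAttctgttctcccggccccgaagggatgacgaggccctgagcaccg

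The FZD5 window held 6 GC box matches, of which the last 2 overlap each other. NDST1 held 2 AP-1 matches and 1 GC box match, and the SOX4 window held 0 matches to any of the 4 motifs. The windows of the other members held 0 matches to AP-1, the cyclic AMP element or the TATA box. GC box matches were not particular to members that rose. TIMP3 held 5, TMOD2 held 2 and BASP1 held 1, and the CREBBP windows held 3 and 4. CDK6 held 3 in 1 window and 0 in the other, and the SATB1 windows held 0, 1, 1 and 3. These matches are letters in a window and were not tested for binding.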

How the data were processed

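The authors deposited log2 values of 4 1-colour Affymetrix arrays in 1 table. Per the submitters' processing notes, RMA and Affymetrix Expression Console were used, with no version given. The log base was read from the range of the values, and which arrays were normalized together is not stated. Arrays carry no counting depth, so their number limits the precision. Of 33297 rows, 19460 carried 1 symbol in GEO's platform annotation, 1754 several and 12083 none. Rows were filtered and tested as the report states, with limma 3.58.1 in R 4.3.3 (lmFit and eBayes, two-sided). The paired fit has 1 residual and 6.60 prior degrees of freedom, the unpaired fit 2 and 4.32. Pairing follows the series text, which places the duplicates in independent studies, and the matching numbers in the titles. Deviations of same-numbered arrays correlated at 0.335 across genes. The fits were run on simulated data with far fewer changed genes than were called here, so that run does not test the calls themselves. Members and lists were chosen with earlier results of these data known. The named genes are the members, MIR191, 4 recalled targets, relatives past the threshold, chosen close paralogs, cell type markers and the 3 nearest genes to each riser. SOX9, NDST3, NDST4, TIMP4, MARCKSL1, GAP43 and COL1A1 were added with their values known. Tried as alternatives were the fit without the block, other limits on dim rows, scaling, moderation, rows per gene and single arrays left out. Figures were drawn with matplotlib 3.10.9.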

Additional observations from a re-analysis of the deposited data

How the results depend on the processing

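SOX4 and FZD5 kept their direction and their call without the experiment block and under every filter, scaling, moderation and row setting tried, with changes of 1.02 to 1.12 and 0.94 to 1.07. Without the replicate block 553 genes were called in place of 1961, 2 members in place of 3, and NDST1 (0.72) lost its call. NDST1 also lost it after median centring (0.72), quantile normalization (0.61) and cyclic loess (0.68), and the cause was not tested. The block changed no other member's call. With each array left out in turn, in the unpaired fit, between 0 and 339 genes and between 0 and 1 members were called, and the changes ranged from 0.51 to 0.94 for NDST1, 1.01 to 1.24 for SOX4 and 1.03 to 1.10 for FZD5. The member still called was SOX4, with the treated array of experiment 1 dropped. In the 3 settings with 0 genes called, limma counted 1663, 2432 and 3178 genes at an unadjusted p under 0.05. These fits have fewer arrays, and the lone array is assumed to vary like the other group. CDK6, CREBBP, TIMP3, BASP1 and CCND2 kept their sign and stayed short of the threshold in every setting, but scaling and single arrays moved their sizes. After quantile normalization the changes were 0.42 for CDK6, 0.31 for CREBBP, 0.21 for TIMP3, -0.31 for BASP1 and -0.46 for CCND2. With 1 array dropped, CDK6 ranged from 0.33 to 0.71, CREBBP from 0.27 to 0.64 and BASP1 from -0.27 to -0.13, each nearest 0 without the control of experiment 1. TIMP3 ranged from 0.20 to 0.49, nearest 0 without the control of experiment 2 and at 0.21 without the treated array of experiment 1. CCND2 ranged from -0.60 to -0.20, farthest from 0 without the treated array of experiment 1 and nearest without that of experiment 2. SATB1 (0.0071 after quantile normalization) and TMOD2 (-0.02 and -0.0046 with an experiment 2 array dropped) changed sign, near 0 and at dim levels.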
